A study of Mus musculus with 6 samples.

Results

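Colony-stimulating factors and their receptors were followed through 8 genes in glomeruli, the capillary tufts that filter the blood in the kidney: the ligands Csf1 and Il34 and the receptor genes Csf1r, Csf2ra, Csf2rb, Csf2rb2, Csf3r and Flt3. Every probe that carries one of these gene names and is not a control was taken, which gave 17 of the 55681 probes on the array and 8 of its 34844 gene names. Of the 17 probes 14 passed the filter on dim signals, and each of the 8 genes kept at least 1 of them.

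The glomeruli came from male mice aged 4 months of 2 strains derived from a C57BL/6 female and a SB/Le male. BXSB/MpJ-Yaa males carry on their Y chromosome the Yaa locus, a copy of the distal end of the X chromosome, and are a model of autoimmune glomerulonephritis. BXSB/MpJ-Yaa+ males have the wild-type Y chromosome and are the controls. Their glomeruli were collected after perfusion with beads, and the 6 glomerular populations of each strain were pooled 2 by 2, so that each strain had 3 arrays. In both strains the samples are whole glomeruli and not sorted cells, so that a change in the number of cells of a type and a change in RNA per cell cannot be told apart. The source names gave the opposite strain in every sample, while titles, descriptions and genotypes agreed. Tlr7, an RNA receptor gene of the copied segment, read 1.63, 1.67 and 1.60 on the arrays labelled control and 2.48, 2.60 and 2.57 on those labelled Yaa.

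Csf1 and interleukin 34 are secreted proteins that bind the same receptor, the tyrosine kinase encoded by Csf1r, on which monocytes, macrophages and microglia depend for survival and proliferation. The granulocyte-macrophage factor is sensed by a pair of chains, the ligand-binding Csf2ra and the signalling chain Csf2rb, which the mouse also uses for interleukin 3 and interleukin 5. The mouse has in addition Csf2rb2, a close relative of Csf2rb that serves interleukin 3 only. Csf3r binds the granulocyte factor and marks neutrophils and their precursors, and Flt3 drives early progenitors and dendritic cells. In the kidney, Csf1 made by resident cells is a known support of macrophages.

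Signals are given as the log2 of an array's processed signal minus the 75th percentile of that array, so that 0 stands for a fairly bright probe, and differences are Yaa minus control on that scale, each ± its SE from 3 arrays in either strain (n = 3). They can be compared between arrays for 1 probe but not between probes. The number of arrays limits the precision. Before scaling, the 75th percentile ranged from 235.1 to 377.3 signal units over the 6 arrays, 50.5% to 59.7% of spots were well above background, and no spot was saturated. Of 8 podocyte markers 7 were measured, with a mean level between 6.02 and 6.50 on the 6 arrays, and Nphs1 was not above background on enough arrays to be tested. Proximal tubule markers were also measured, and their mean level was lowest on Yaa replicate 1 (2.06, against 2.77 to 3.54 on the other arrays). All Yaa samples lay in one column of the slide and all controls in the other, so strain and slide column cannot be told apart.

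The receptors of the mononuclear phagocyte lineage were higher in Yaa glomeruli, while the measured ligands were not shown to differ. Csf1r, Csf2ra, Csf2rb and Flt3 rose, by 0.97 to 2.85 on the log2 scale (1.96-fold to 7.22-fold). These are 4 of 8 genes higher and 0 lower in limma's test with Benjamini-Hochberg adjustment over all 20714 genes tested at a threshold of 0.05. Across all genes 2.96% were higher and 0.85% lower by the same rule (3.81% in either direction), and the median log2 fold change was -0.11. In the same 4 genes every Yaa array lay above every control array, which held for 7.81% of all genes tested; groups that did not overlap in either direction made up 25.2%. Flt3 passed the filter on dim signals only through the Yaa arrays, where it was higher, and with probes required above background on all 6 arrays the count was 3 of 7, without Flt3. With normexp background correction the count was 3 of 8, again without Flt3. The genes that did not pass were Csf1, Il34, Csf2rb2 and Csf3r. At an unadjusted p under 0.05, still 0 of the 8 genes were lower.

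**Figure D1:**
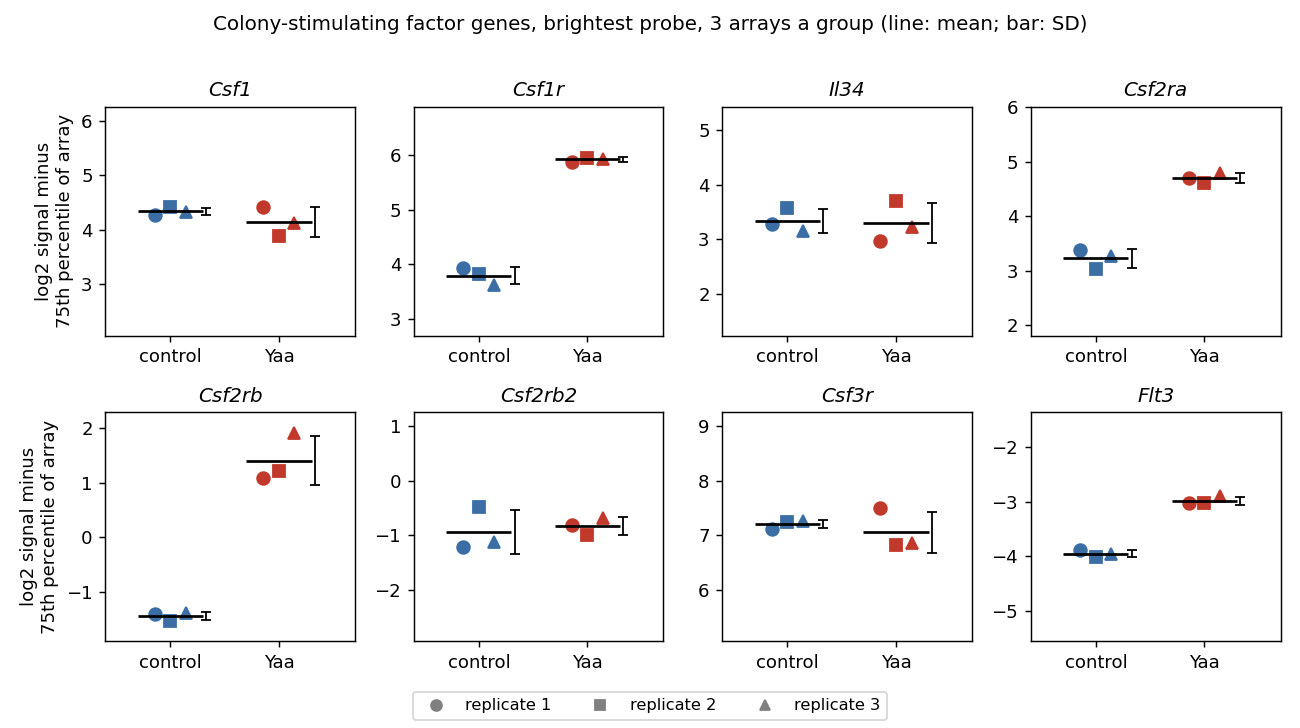
Log2 signal minus the array's 75th percentile (vertical axis) of the brightest kept probe of each of the 8 genes on the 3 control (blue) and 3 Yaa (red) arrays; marker shapes give the replicate, lines the group mean and bars the SD, and every panel spans the same number of log2 units. Csf1r, Csf2ra, Csf2rb and Flt3 show groups that do not overlap, with means of 3.79 and 5.92 for Csf1r, and the other 4 genes show groups that do.

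Csf1, the main growth factor of macrophages, was measured by a probe printed in 10 spots on each array. It read 4.28, 4.41 and 4.33 for control replicates 1, 2 and 3, with 4.43, 3.89 and 4.12 for Yaa replicates 1, 2 and 3. The groups overlapped, with Yaa replicate 1 above all controls and the other 2 Yaa arrays below them. The difference was -0.20 ± 0.17 (adjusted p = 0.587), with a 95% confidence interval from -0.59 to 0.20. Within an array the 10 spots had an SD of 0.0335 to 0.0440 on the log2 scale, and the 3 Yaa arrays, which are separate pools, had an SD of 0.27. A pair of probes placed by the array's annotation on another Csf1 transcript, which overlap each other by 31 bases and are therefore not separate evidence, gave -0.33 ± 0.15 and -0.23 ± 0.15 (adjusted p over probes 0.343 and 0.502). On the first of them, A_55_P2017914, every Yaa array lay below every control array, as in 17.4% of all genes tested. Against the 10-spot probe, the log2 fold changes of the pair differed by 0.14 and 0.03 (exact permutation test, two-sided, p = 0.2 and p = 0.9). The smallest p possible with 3 against 3 arrays is 0.1, so this test cannot show that the probes agree. The fourth Csf1 probe did not rise above background in either strain.

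Il34, the second ligand of the Csf1 receptor, read 3.28, 3.57 and 3.14 in controls and 2.96, 3.70 and 3.22 in Yaa samples. The lowest and the highest array both belonged to the Yaa group, and the control range lay within the Yaa range. Its difference was -0.04 ± 0.22 (adjusted p = 0.946), with a 95% confidence interval from -0.56 to 0.49.

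Csf1r, the receptor of both ligands, had the smallest p-value of the 8 genes. Its values were 3.93, 3.82 and 3.62 in controls and 5.88, 5.95 and 5.94 in Yaa samples. The 3 Yaa arrays were closely grouped (SD 0.04) and all lay above the controls. The difference was 2.13 ± 0.13, or 4.39-fold (adjusted p = 0.000452), and 1.83% of all genes had a larger log2 fold change.

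Not all Csf1r probes gave this difference. A second probe, A_52_P602091, was at -2.32, -2.17 and -1.93 in controls and -0.40, -0.08 and 0.42 in Yaa samples, and rose by 2.12 ± 0.23 (adjusted p over probes 0.00352, where 2.62% of all kept probes rose). With normexp background correction its difference was 1.37. The third probe, A_55_P2025073, read -0.28, -0.28 and -0.18 against 0.06, 0.01 and 0.01. Its groups did not overlap, but its difference was 0.27 ± 0.12 and did not pass (adjusted p over probes 0.344). In mm9 the first probe lies on chromosome 18 at chr18:61290725-61290784, the second within chr18:61289398-61289758, and the third upstream at chr18:61278661-61278720, all read from the plus strand of the same gene; exon annotation of mm9 was not used here. The log2 fold changes of A_55_P2025078, the first, and A_55_P2025073 differed by 1.86, with no overlap between groups (exact permutation test, two-sided, p = 0.1, the smallest p that 3 against 3 arrays can give, and 0.233 adjusted over 7 such probe comparisons).

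**Figure D2:**
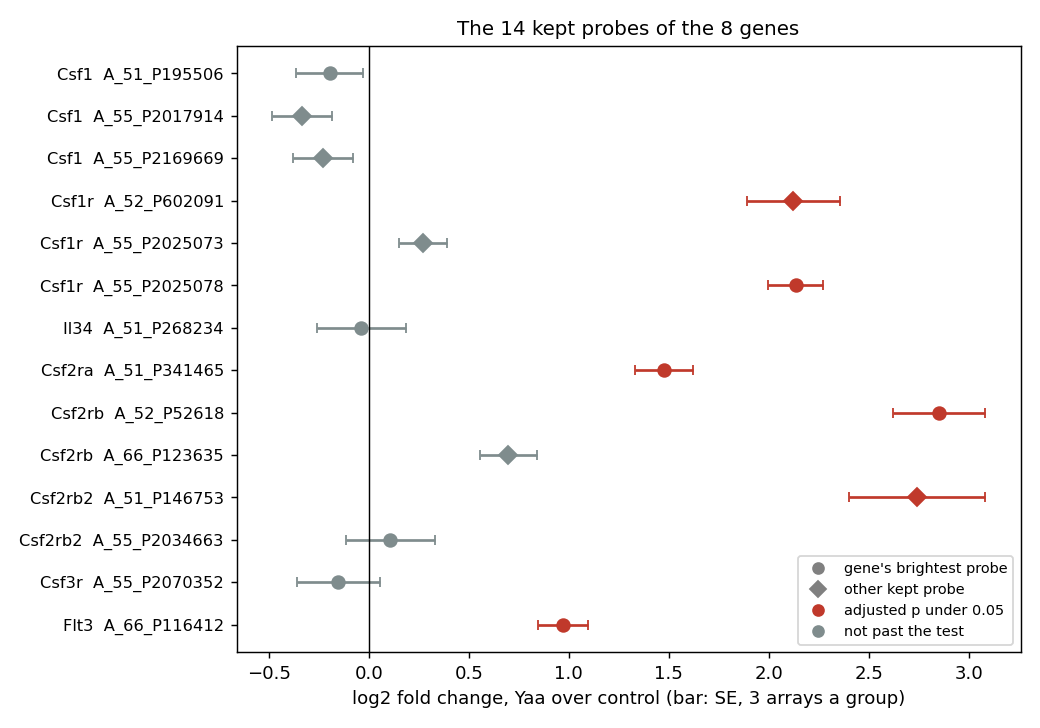
Log2 fold change of Yaa over control (horizontal axis) with its SE for the 14 kept probes of the 8 genes, 3 arrays per group; circles are each gene's brightest probe, diamonds its other probes, and red marks probes with an adjusted p under 0.05 over all kept probes. Csf1r, Csf2rb and Csf2rb2 each have a probe near 2 or 3 and another between 0.11 and 0.70.

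Csf2ra, the ligand-binding chain of the granulocyte-macrophage factor receptor, was measured by 1 probe. It read 3.37, 3.03 and 3.27 in controls and 4.71, 4.61 and 4.79 in Yaa samples. Each Yaa array exceeded the highest control by more than 1 log2 unit. The rise was 1.48 ± 0.14, or 2.78-fold (adjusted p = 0.00200).

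Csf2rb, the signalling chain shared with the receptors of interleukin 3 and interleukin 5, had the largest difference of the 8 genes. Its brighter probe, A_52_P52618, read -1.41, -1.54 and -1.40 in controls and 1.09, 1.22 and 1.91 in Yaa samples. Yaa replicate 3 was the highest and the controls were closely grouped. The rise was 2.85 ± 0.23, or 7.22-fold (adjusted p = 0.00104), and 1.01% of all genes had a larger log2 fold change. The second Csf2rb probe, A_66_P123635, read -1.73, -1.91 and -1.98 against -1.29, -1.21 and -1.03. Its groups did not overlap either, but the difference was 0.70 ± 0.14 and did not pass (adjusted p over probes 0.0522).

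Csf2rb2, the interleukin 3 chain, gave different calls with its probes. The brightest one on average, A_55_P2034663, which represents the gene here, read -1.21, -0.48 and -1.13 in controls and -0.80, -0.999 and -0.68 in Yaa samples, a difference of 0.11 ± 0.22 (adjusted p = 0.824). The other probe, A_51_P146753, read -2.31, -3.23 and -2.68 against -0.45, -0.17 and 0.63. It rose by 2.74 ± 0.34 (adjusted p over probes 0.00619), and its groups did not overlap. When a gene was instead given the mean of its probes, Csf2rb2 passed with 1.43 (adjusted p = 0.00795), while Csf2rb was at 1.77 (adjusted p = 0.00202) and Csf1r at 1.51 (adjusted p = 0.00121). The probes disagreed by 2.15 within Csf2rb and by 2.63 within Csf2rb2 (exact permutation tests, two-sided, p = 0.1 each, the smallest possible, 0.233 after adjustment over 7 comparisons).

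The rising probe of Csf2rb and the rising probe of Csf2rb2 were compared letter by letter, since the genes are near copies of each other. Their best-matching stretches of 30 bases, read from the deposited probe sequences 5′ to 3′, agree at 27 bases, and capitals mark the 3 positions that differ.
Csf2rb probe A_52_P52618: ggcagatcaaAtgtCccttggtctCtgttc
Csf2rb2 probe A_51_P146753: ggcagatcaaGtgtTccttggtctAtgttc
Counted from the 5′ end of these stretches, with the Csf2rb base first, the substitutions are A11G, C15T and C25A. The probes are 60 bases long, and the longest run that the 2 rising probes share is 10 bases. The other 3 pairings of a Csf2rb with a Csf2rb2 probe agreed at no more than 15 of 30 bases.

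The rises of these 2 probes, 2.85 and 2.74, differed by 0.11 (exact permutation test, two-sided, p = 0.8). With so few arrays this test cannot show that the rises are equal. With normexp background correction they were 2.17 and 1.65, both past the test, and their difference was not tested there. Whether each probe reads its own gene, the other one or both was not tested, and the values of Csf2rb and Csf2rb2 are uncertain in that respect. On mm9 the Csf2rb probe lies at chr15:78181168-78181227 on the plus strand and the Csf2rb2 probe at chr15:78113126-78113185 on the minus strand.

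Csf3r, the receptor of the granulocyte factor, was measured by a single probe and read 7.11, 7.25 and 7.26 in controls and 7.49, 6.82 and 6.85 in Yaa samples. Yaa replicate 1 was above all controls and the other 2 Yaa arrays were below them. The difference was -0.15 ± 0.20 (adjusted p = 0.729), with a 95% confidence interval from -0.64 to 0.33. Of the neutrophil markers 0 of 8 tested of 11 listed passed, with a median of 0.23. Ly6g, a defining surface marker, was at 1.01 ± 0.50 (adjusted p = 0.377) and S100a8 at 0.36 ± 0.70 (adjusted p = 0.816). Ngp, Mpo and Mmp8 were not tested, being above background on up to 2 Yaa arrays each and on 0, 0 and 1 control arrays. The neutrophil list's mean log2 level lay between -0.83 and -0.03 in controls and between -0.95 and 0.35 in Yaa samples. Of the 8 tested markers 0 had an unadjusted p under 0.05. At an unadjusted p under 0.05 the Csf3r difference did not pass either.

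Before scaling, the signal of the Csf3r probe ran from 28639 to 44477 units, and its letters were looked at after these values had been seen. Bases 31 to 60 of the probe hold a run, in capitals, that belongs to the consensus of B1, an abundant short interspersed repeat of the mouse genome.
Csf3r probe A_55_P2070352: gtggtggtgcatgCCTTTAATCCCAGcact
The 13 bases in capitals occur in 9 other probes of the array, all kept. Of these 9 probes 8 were highest on Yaa replicate 1, as the Csf3r probe was, and 15.2% of all kept probes were highest on that array. The probe of TC1653005, which shares a run of 30 bases with the Csf3r probe, read 7.74, 7.72 and 7.78 in controls and 8.05, 7.40 and 7.35 in Yaa samples. None of the 9 passed the test, and their differences ran from -0.21 to 0.60. The exception in shape was the H2-T24 probe, highest on Yaa replicate 3. How much of the Csf3r signal comes from other transcripts with this run was not tested, so that the Csf3r level is uncertain here. The same run, on either strand, is in 49 of 32851 RefSeq promoter windows (0.149%).

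**Figure D3:**
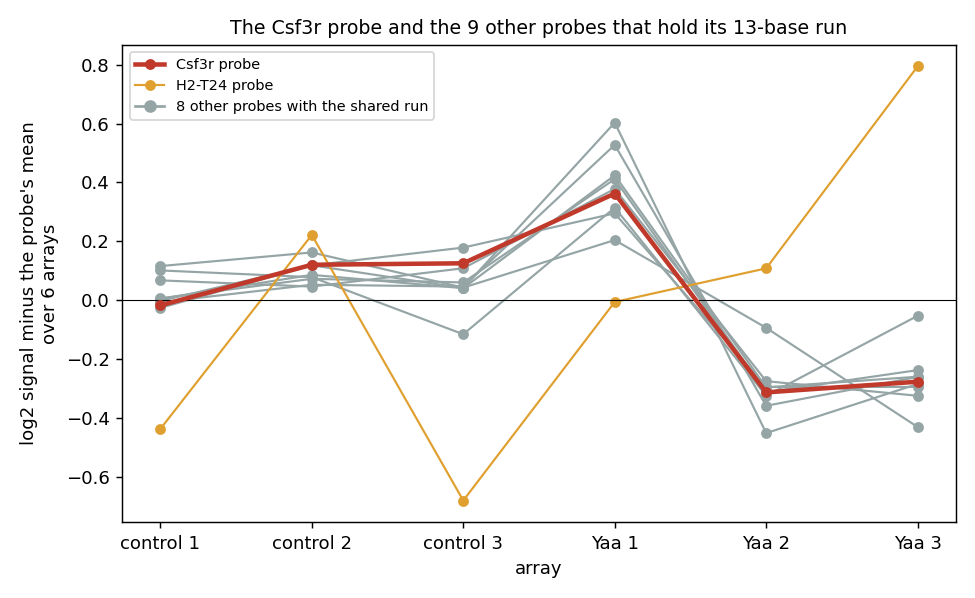
Log2 signal of each probe minus its own mean over the 6 arrays (vertical axis) for the Csf3r probe (red), the H2-T24 probe (yellow) and the 8 other probes (grey) that hold the same 13-base run, by array (horizontal axis); lines only join values of 1 probe. The Csf3r probe and the 8 grey probes all peak on Yaa replicate 1 and the H2-T24 probe does not.

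Flt3, the receptor that dendritic cell progenitors need, rose from a level near background. Its probe read -3.89, -4.02 and -3.96 in controls and -3.03, -3.02 and -2.90 in Yaa samples. It was well above background on 1 of 3 control arrays and on all 3 Yaa arrays. The difference was 0.97 ± 0.12, or 1.96-fold (adjusted p = 0.00593). This call depended on how background was removed: with normexp correction the difference was 0.14 (adjusted p = 0.575). The other 2 Flt3 probes were too dim to be kept, one above background on no array and the other on 2 control arrays and 1 Yaa array, so that the rise rests on 1 dim probe. In the same order their differences of means were 0.56 and -0.10, which were not tested.

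The remaining genes of these pathways were taken from a list of 55, of which 51 were measured. Of the 51 genes 15 rose, 0 fell and 36 did not pass (23 higher and 1 lower at an unadjusted p under 0.05), with a median log2 fold change of 0.55 beside -0.11 over all genes; 2.96% of all genes rose. With the replicate number as a block 13 passed. With probes required above background on all 6 arrays the count was 13 of 48.

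Of the other ligands only Flt3l and Kitl were measured, and neither was shown to differ. Csf2, Csf3, Il3 and Il5, which encode the ligands of Csf2ra, Csf3r and the shared chains, were not well above background on enough arrays to be tested. Flt3l, the ligand of Flt3, differed by -0.02 ± 0.13 and Kitl, the ligand of Kit, by -0.19 ± 0.21. Of the related receptors Kit, the stem cell factor receptor, was at 1.18 ± 0.21 (adjusted p = 0.0290), from -1.66, -1.45 and -1.21 in controls to 0.11, -0.47 and -0.42 in Yaa samples. With the replicate block its adjusted p was 0.0882. Il3ra, the interleukin 3 binding chain, was at 0.35 ± 0.21 and Il5ra, the interleukin 5 binding chain, at -0.39 ± 0.22, and neither passed. Pdgfra and Pdgfrb, kinases of the same family as Csf1r, were at -0.05 ± 0.23 and -0.59 ± 0.36. Without Yaa replicate 1 Pdgfrb was at -1.01 (adjusted p = 0.0376).

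Among co-receptors, Trem2 and its signalling partner Tyrobp, which work alongside Csf1r in macrophages, rose. Trem2 went from -3.10, -2.76 and -3.13 to -0.31, 0.70 and 0.36, a rise of 3.24 ± 0.27 (adjusted p = 0.00115). Tyrobp rose by 3.31 ± 0.24 (adjusted p = 0.000754). Syndecan 1 and Ptprz1, which also bind interleukin 34, differed by -0.55 ± 0.17 and 0.61 ± 0.25 without passing, and Adam17, a protease that sheds the Csf1 receptor, by 0.21 ± 0.18.

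Downstream of the receptors 7 of 18 kinases, lipases and STAT factors rose. Among them were the Src-family kinases Fgr (3.49 ± 0.24) and Lyn (1.37 ± 0.16), the kinase Syk (2.85 ± 0.22), the leukocyte phosphoinositide 3-kinase subunits Pik3r5 (3.58 ± 0.35) and Pik3cg (1.68 ± 0.11) and the phospholipase Plcg2 (0.70 ± 0.13). Pik3r5 was well above background on 2 of 3 control arrays and passed the filter only through the Yaa arrays. Pik3cd, another leukocyte subunit, was at 0.72 ± 0.17 and did not pass (adjusted p = 0.0783). Jak2, the kinase bound to Csf2rb, was at -0.02 ± 0.14, and Stat5a and Stat5b, its main targets, were at 0.11 ± 0.13 and 0.12 ± 0.11. Of 13 adaptors and inhibitors the phosphatase Ptpn6 (2.97 ± 0.24) and the adaptor Dok3 (1.87 ± 0.16) rose. Cish and Socs2, feedback inhibitors that STAT5 induces, were at -0.13 ± 0.14 and -0.27 ± 0.15 and did not pass. Socs1 at 1.21 ± 0.68 and Socs3 at 0.55 ± 0.19 did not pass either. At an unadjusted p under 0.05, 6 of the 13 adaptors and inhibitors were higher and 0 lower.

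Of 8 transcription factors of the myeloid lineage 3 rose. Runx1, which regulates Csf1r, rose by 2.27 ± 0.16 and Irf8, a factor of monocytes and dendritic cells, by 1.79 ± 0.32. Spi1, which encodes PU.1, the master factor of the lineage, did not stand above background in any of the controls. It passed the filter only through the Yaa arrays, which read -2.48, 0.48 and -1.35. Their mean was 8.49-fold above the controls when each control array was given the higher of its dimmest signal above background and the probe's own. This is a ratio of means and not a lower bound. The fitted value was 3.94 ± 0.70 (adjusted p = 0.0311). With normexp correction it was 1.38 (adjusted p = 0.176). The same correction gave smaller differences that still passed for Pik3r5 (1.74), Pik3cg (0.64), Trem2 (1.79) and Runx1 (1.46). Kit, Plcg2, Spi1 and Irf8 did not pass when any 1 control array was left out, with adjusted p from 0.0709 to 0.177. Kit (adjusted p = 0.0544), Plcg2 (0.0850) and Spi1 (0.0803) did not pass without Yaa replicate 3, and Plcg2 (0.101) not without Yaa replicate 2. With the replicate block Plcg2 was at an adjusted p of 0.0593.

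**Figure D4:**
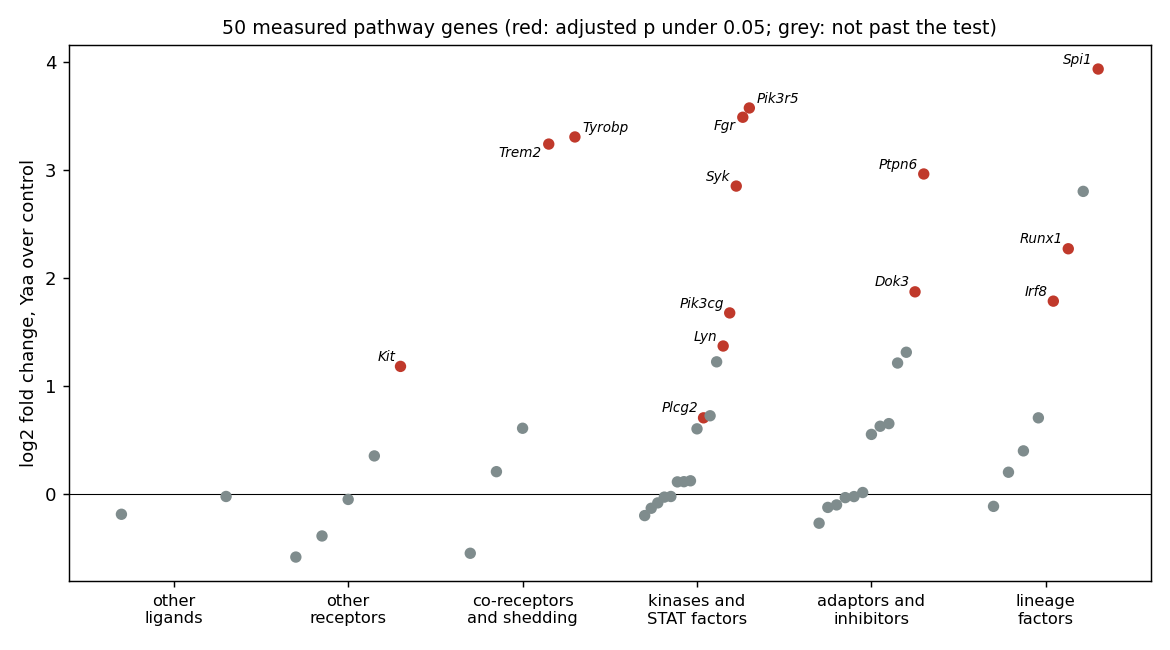
Log2 fold change of Yaa over control (vertical axis) for 50 of the 51 measured pathway genes, grouped by role (horizontal axis) and ordered by value within a group; red marks genes with an adjusted p under 0.05 and names them, and 1 gene that is not reported here is not drawn. No red point lies below 0.

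Most of the macrophage markers were also higher in Yaa glomeruli. Of 12 macrophage markers 9 rose, 0 fell and the median was 3.66; 3 of the 9, C1qa, Fcgr1 and Ms4a7, were well above background on 1 of 3 control arrays and passed the filter only through the Yaa arrays. The list's mean log2 level was -0.47, -0.37 and -0.55 on control arrays and 2.44, 2.72 and 3.14 on Yaa arrays. Adgre1, a surface receptor of macrophages, rose by 4.65 ± 0.20 and Cd68, a lysosomal protein of macrophages, by 3.47 ± 0.24. The 3 that did not pass were Cd14 at 0.81 ± 0.21, the mannose receptor gene Mrc1 at -0.29 ± 0.13, with every Yaa array below every control array, and the integrin gene Itgam at -0.50 ± 0.35. The array has 3 Itgam probes, of which only the brightest kept one was used, with a mean of 7.14 in controls. Which transcripts that probe reads was not tested. Csf1r itself was well above background on all control arrays, as was Adgre1.

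The dendritic cell list, whose mean level lay between -0.41 and -0.16 in controls and between 1.11 and 1.56 in Yaa samples, had 3 of 7 tested genes higher and 0 lower, with a median of 1.18. Itgax, which encodes CD11c, rose by 4.36 ± 0.26, while Zbtb46, a defining factor of conventional dendritic cells, was at 0.01 ± 0.13 (adjusted p = 0.974). Of 5 tested monocyte genes and 7 tested T cell genes 0 rose and 0 fell in limma's test (1 monocyte and 2 T cell genes were higher and 0 lower at an unadjusted p under 0.05), with medians of 0.63 and 0.95, and of 5 tested B and plasma cell genes 1 rose. The mean log2 level of the monocyte list lay between -0.19 and 0.65 in controls and between 0.03 and 0.93 in Yaa samples. Among genes of the resident compartment, 1 of 7 podocyte genes fell, Thsd7a at -0.80 ± 0.15, and the list's median was -0.32. Of 6 genes of the loop, distal tubule and collecting duct 1 fell, Slc12a1, the sodium-potassium-chloride carrier of the loop, at -0.96 ± 0.16 (adjusted p = 0.0266), with a list median of -0.46 and 3 lower at an unadjusted p under 0.05. Of 7 endothelial, 6 mesangial and 7 proximal tubule genes 0 passed (1 higher and 3 lower at an unadjusted p under 0.05, none of them of the proximal tubule), with medians of -0.25, -0.28 and -0.41. The part of macrophage number in the receptor values was not tested.

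**Figure D5:**
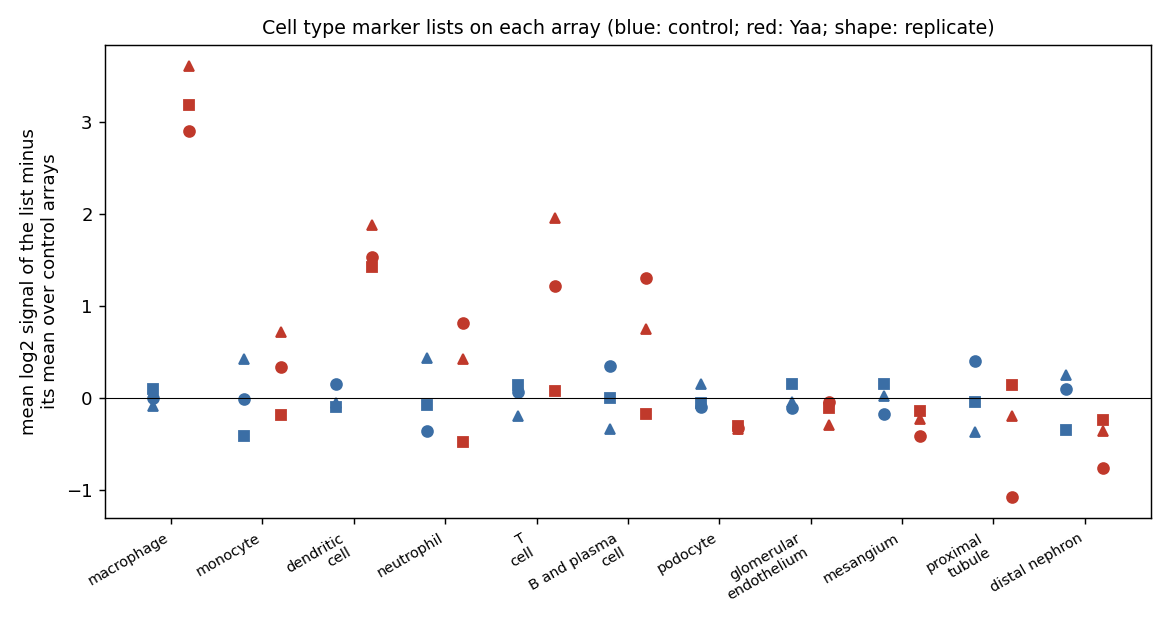
Mean log2 signal of each cell type marker list on each array minus the mean of the 3 control arrays (vertical axis), by list (horizontal axis); blue is control, red is Yaa, and marker shapes give the replicate. The macrophage list lies highest, with all Yaa arrays well above the controls, and all Yaa arrays of the dendritic cell list also lie above the controls. The podocyte, endothelial and mesangial lists lie nearer 0, with all Yaa arrays of the podocyte list below the controls.

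Genes whose signal followed that of a rising receptor most closely over the 6 arrays were picked by the smallest root mean square difference of mean-centred log2 values among 13156 genes with an established symbol. This is a description over 6 arrays in 2 groups. For Csf1r these were Runx1 (0.0968), Rasa4 (0.100) and Steap4 (0.127), for Csf2ra they were Slc38a1 (0.103), Pik3cg (0.144) and Unc119 (0.1503), and for Csf2rb Ptpn22 (0.0710), Batf3 (0.121) and Irf5 (0.130). For Flt3 they were Rspo1 (0.0318), Tlr7 (0.0715) and Fam78a (0.0762), whose log2 fold changes were 0.95 ± 0.12, 0.91 ± 0.12 and 0.95 ± 0.13. Runx1 and Pik3cg are also in the pathway list, and Batf3 is in the dendritic cell list. Of Flt3's neighbours, Fam78a did not pass when any 1 control array was left out (adjusted p 0.0534 to 0.0645), Tlr7 not without control replicate 1 (0.0527) and Rspo1 not without control replicate 2 (0.0556).

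Promoter sequence from RefSeq on GRCm38.p6, in windows of 300 bases that span the gene start, was matched by symbol for 5 genes, Csf1, Csf2ra, Csf2rb2, Csf3r and Flt3, and searched on both strands for letters that myeloid factors bind. The PU.1 word GAGGAAGT was in the Csf2rb2 window and in none of the other 4, beside 3.20% of all 32851 windows. It lies within chr15:78305676-78305705, shown on the minus strand with the word in capitals as its reverse complement.
Csf2rb2 promoter: gggcactggcaACTTCCTCaatctgctctc
The shorter ETS core GAGGAA, which is contained in the PU.1 word, occurred 2 times each in the Csf2ra and Csf2rb2 windows and 1 time in that of Csf3r, beside 28.3% of windows that hold it at least once. In Csf2ra the 2 words follow each other directly just before the gene start at chr19:61228414-61228443, with the first one in capitals.
Csf2ra promoter: aacctgcagatGAGGAAgaggaagcgggag
The C/EBP word TTGCNNAA (10.8% of windows) and the RUNX word TGTGGT (16.8%) were in none of the 5. These are matches of letters only.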

How the data were processed

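The members, gene lists and tests were chosen with earlier results of these data known. The deposited files hold linear signal intensity of single Cy3 arrays. Per the file headers the authors' spots were read with Agilent Feature Extraction 10.7.3.1, and the submitters' processing notes name 9.5.3. The processed signal is background-subtracted within each array and was not normalized between arrays. Probe coordinates are mm9, per the file headers.

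Groups came from title, description and genotype. Control and outlier-flagged spots were left out, log2 was taken, spots were averaged per probe, and the array's 75th percentile over probes was subtracted. To be kept, a probe needed a share of 0.5 or more of its spots well above background on every array of 1 strain or of both (28593 probes). The brightest kept probe stood for a gene. limma 3.58.1 (lmFit, eBayes, R 4.3.3) was fitted on all 20714 genes, and on all kept probes for probe values (3.27% of them called, 2.62% higher), with Benjamini-Hochberg adjustment, two-sided, with 4 residual and 2.84 prior degrees of freedom. All adjusted p-values are from it. The fit was tested on simulated data. Normexp used an offset of 50. Symbols of older array names were updated through RefSeq.

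Text names all 8 members and their probes, pathway genes past the test, and all listed ligands and receptors, and for each risen member the 3 genes of most similar profile; single markers, adaptors and other genes were chosen after their values were seen. Not every gene on the lists is reported here. Same-numbered arrays deviated together from their group means (correlations 0.126, 0.205 and 0.219, others -0.194 to 0.028). The pairing comes from the replicate numbers, which ran with the slide row. No label states separate animals per population, so p-values measure the spread between pools.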

Additional observations from a re-analysis of the deposited data

How the results depend on the processing

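Tried were normexp correction, quantile and median scaling, no filter on dim probes, a filter on all 6 arrays, the mean of a gene's probes, the replicate block, an intensity trend with robust variances, leaving out each array and, chosen after seeing the data, the 75th percentile over spots. None reversed a called difference of the 8 genes. At gene level Csf1r, Csf2ra and Csf2rb passed under all of them. Flt3 passed in every gene-level one except normexp correction (0.14, adjusted p = 0.575) and the filter on all 6 arrays, which left it out. The Csf1r probe A_55_P2025073 and the Csf2rb probe A_66_P123635 did not pass in any of the fits on probes. As a probe, Flt3 also missed the threshold without the filter (0.0826), with the trend (0.0520) and without control replicate 2 (0.0594). At gene level Csf2rb2 passed only with the mean of probes (1.43, adjusted p = 0.00795). With the replicate block, which treats same-numbered arrays as pairs, 4 of the 8 genes passed (adjusted p 0.00613 for Csf1r, 0.0116 for Csf2ra, 0.00734 for Csf2rb and 0.0301 for Flt3); beside those of Kit and Plcg2 it changed no other call among the 8 genes and the 51 pathway genes. Over all genes 790 passed, 396 with no filter and 399 to 1027 when 1 array was left out. Without control replicates 1, 2 and 3 it was 439, 412 and 399. The pathway count ran from 11 to 17 when 1 array was left out and was 11 with no filter, where Kit, Plcg2, Spi1 and Irf8 did not pass, nor did Rspo1, Tlr7 and Fam78a (0.0504 to 0.0597); Plcg2 also missed the threshold with median scaling (0.0527). Signals near background, as for Flt3, Spi1, Pik3r5 and the rising Csf2rb2 probe, limit what can be said of their fold changes.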
